A study of Mus musculus with 8 samples.

Results

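miR-122, miR-192 and miR-194 are microRNAs (miRNAs) best known from liver and gut epithelium, and here they were measured in lung RNA. They were taken by their exact array names (mmu-miR-122, mmu-miR-192 and mmu-miR-194), and all 3 were found among the 650 miRNAs of the array, 611 of them from mouse. The study placed particles or water in the trachea of pregnant C57BL/6 Bom Tac mice. The exposed group received Printex 90, a commercial carbon black nanoparticle, suspended in nanopure water. It was given as 4 instillations of 0.067 mg, on days 7, 10, 15 and 18 of gestation, for 0.268 mg in all. The control group received the nanopure water vehicle alone. Lungs of these females (the dams) were taken at weaning, 26 to 27 days after exposure, and each group had 4 arrays. The sources used here do not give the animals' ages. Nothing in the labels ties an array to a separate mouse, so p-values measure only the spread between these samples, which may be technical.

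miR-122 is made in hepatocytes, where it is the dominant miRNA and supports the expression of lipid and cholesterol genes. It leaves damaged liver cells and is used as a plasma marker of liver injury. miR-192 and miR-194 come from shared primary transcripts that hepatocyte nuclear factors switch on in liver, kidney and intestine, and both have been linked to the differentiated state of epithelium. miR-215 is the close relative of miR-192 in the second of these transcripts.

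The mature sequences show which of these miRNAs can share targets. They are given 5′ to 3′ with the seed, bases 2 to 8, in capitals.
miR-192: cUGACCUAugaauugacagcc
miR-215: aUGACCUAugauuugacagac
miR-194: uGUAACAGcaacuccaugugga
miR-192 and miR-215 share the seed UGACCUA, and 18 of their 21 bases are identical. No other mature miRNA of the 1679 in the RefSeq table has that seed, and miR-194 alone has GUAACAG. In GRCm38.p6 the Mir194-2 hairpin (chr19:6264643-6264728) lies 115 bases before Mir192 (chr19:6264844-6264932) on the plus strand. The Mir194-1 hairpin (chr1:185313319-185313385) lies 195 bases before Mir215 (chr1:185313581-185313692), also on the plus strand. Both miR-194 hairpins yield the same mature strand, so the array cannot tell the chromosome 1 source of miR-194 from the chromosome 19 source.

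Signals are given relative to the 75th percentile of each array, and a miRNA counts as detected when at least 50% of the spots of at least 1 of its probes were well above background. An array had 248 to 283 detected mouse miRNAs, and 268 were tested. That percentile lay between 581 and 805 intensity units before scaling. Of marker miRNAs for cell types of the lung, 5 of 5 epithelial, 3 of 3 multiciliated airway and 2 of 2 endothelial ones were detected on 4 or more arrays. Their detection does not show that the RNA is from lung, since the 5 epithelial ones are also on the gut list used below. All arrays shared 1 slide and 1 scan, with the Printex 90 samples in slide row 2 and the controls in row 1, and the effects of row and treatment cannot be told apart. The lowest percentile was on Printex 90 replicate 3 (581, next 628) and the highest on control replicate 4 (805, next 721). The number of detected miRNAs overlapped between the groups.

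In the comparison of Printex 90 with vehicle, which asks whether these miRNAs differed in the dams' lungs at weaning, miR-122, miR-192 and miR-194 did not pass the test. None of the 3 had groups that did not overlap. Of all 268 tested miRNAs, 0 passed a limma adjusted p of 0.05 (0% of those tested) and 15 had an unadjusted p under 0.05 (5.6%). Groups did not overlap for 4 of the 268 (1.49%), with 3 higher after Printex 90 (1.12%) and 1 lower (0.373%). The 3 members differed from each other in how they varied between arrays rather than between groups. miR-122 was among the 4 most variable of the tested miRNAs under each setting in which spread was ranked. Those settings kept all arrays and tested miR-122, and the replicate block was not among them. miR-192 and miR-194 ranked 105 and 195 of 268 from the most variable in the main processing, and 253 and 261 after normexp background correction.

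**Figure D1:**
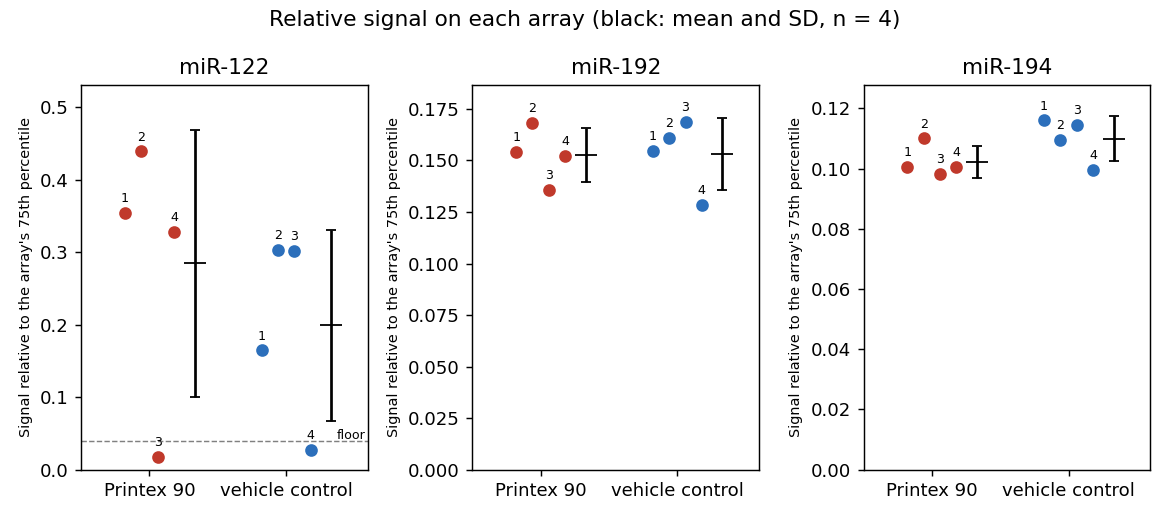
Signal relative to the array's 75th percentile (linear axis from 0) for miR-122, miR-192 and miR-194, with Printex 90 on the left and vehicle control on the right of each panel. Points are arrays with their replicate number, black bars are the mean and SD of 4 arrays, and the dashed line is the floor of 0.0388. One array of each group lies under the floor for miR-122.

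miR-122, the hepatocyte miRNA with its gene on chromosome 18, measured 0.354, 0.439, 0.0172 and 0.328 on Printex 90 replicates 1 to 4, against 0.164, 0.303, 0.302 and 0.0269 on control replicates 1 to 4. Each group thus held 3 arrays with a clear signal and 1 with almost none, and the ranges of the groups overlapped. The groups averaged 0.284 ± 0.184 after Printex 90 and 0.199 ± 0.132 in controls (SD, n = 4 each). With the 2 lowest arrays set to the floor, the log2 difference (Printex 90 minus control) was 0.44 (SE 0.99, limma adjusted p = 0.896). That is 1.36-fold, with a 95% interval of 0.266 to 6.92, which leaves room for both a large rise and a large fall. Without the floor, the linear means did not differ beyond the spread either (exact permutation p = 0.429, 2-sided). The difference was 1.25 without Printex 90 replicate 3 (limma adjusted p = 0.601) and -0.23 without control replicate 4 (limma adjusted p = 0.957).

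The low miR-122 arrays were low on both of its probes. Probe A_54_P2401 read 138, 193, 7.03 and 142 intensity units on Printex 90 replicates 1 to 4, against 71.0, 119, 117 and 13.9 on control replicates 1 to 4. Probe A_54_P2400 read 84.4, 123, 2.94 and 86.0 units after Printex 90, against 42.9, 73.0, 72.6 and 7.80 in controls. Both probes therefore ordered the arrays into the same 6 bright and 2 dim ones. On Printex 90 replicate 3, 0 of 20 spots were well above background, so its value is only a bound. On control replicate 4 the brighter probe had 7 of 10 spots well above background and the other probe had 0, so miR-122 was detected there at a low level. The spots of a probe varied by a median of 5.64% (coefficient of variation) where the probe was detected, which is small beside the difference between arrays.

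**Figure D2:**
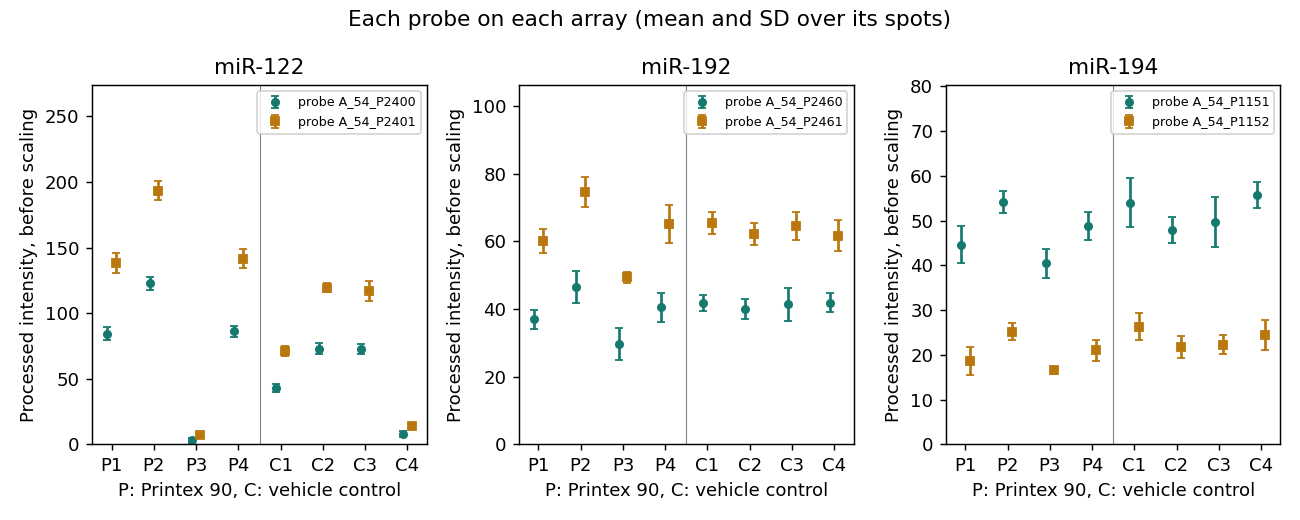
Processed intensity before scaling (linear axis from 0) of both probes of each miRNA on each array, Printex 90 (P1 to P4) left of vehicle control (C1 to C4). Points are means and bars the SD over the kept spots, at most 10 per probe. Both miR-122 probes are near 0 on P3 and C4, while the miR-192 and miR-194 probes are not.

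Over the 7 arrays with miR-122 detected, the highest signal was 16.3 times the lowest. The highest array was at least 11.3-fold above the floor that stands for the 2 dim ones, and the 6 bright arrays spanned 2.67-fold. Across the 240 miRNAs detected on all arrays the median range was 1.31-fold. The within-group SD of miR-122 was 1.52 on the log2 scale, where the median of the 268 tested was 0.12 (quartiles 0.08 and 0.17). It was the largest at the floor used, but the floor stands for 2 of the 8 values and so sets its size. With the floor halved the SD was 1.91, and with the floor doubled it was 1.04, rank 4 after miR-1 (1.39), miR-133b (1.37) and miR-133a (1.22) of striated muscle. Its rank was 2 when the log2 values of the probes were averaged, 3 in the value table and 4 with normexp, each time with miR-1 first. These muscle miRNAs ordered the control arrays as miR-122 did, rising from replicate 4 over 1 and 3 to 2, but had another order of the Printex 90 arrays. miR-1 measured 1.55, 0.131, 0.208 and 0.180 on Printex 90 replicates 1 to 4, against 0.482, 0.941, 0.832 and 0.171 on control replicates 1 to 4. miR-1 was thus highest on Printex 90 replicate 1 and low on Printex 90 replicates 2 and 4, both bright for miR-122. It was also low on the 2 arrays dim for miR-122 (0.208 on Printex 90 replicate 3 and 0.171 on control replicate 4).

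**Figure D3:**
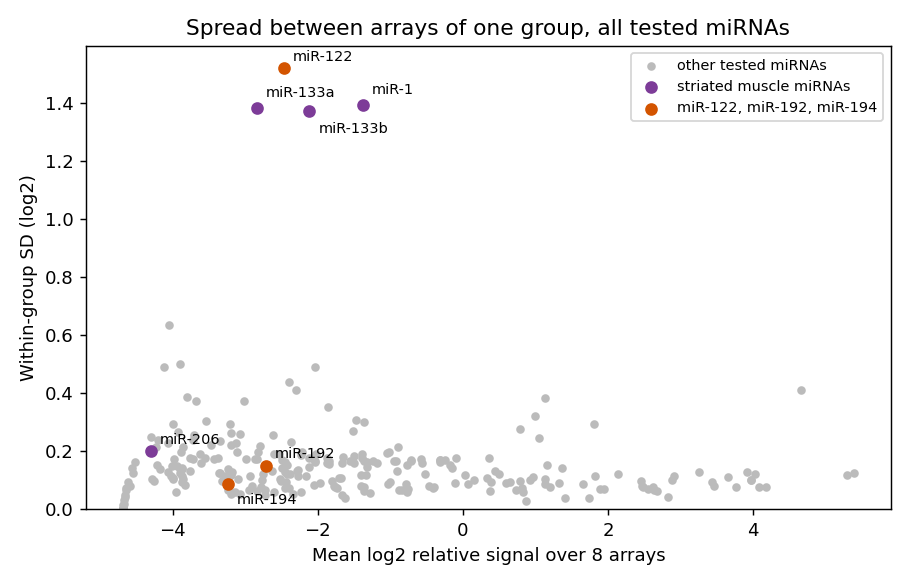
Within-group SD (log2) against the mean log2 relative signal over 8 arrays for the 268 tested miRNAs. Orange points are miR-122, miR-192 and miR-194, purple points are the 4 striated muscle miRNAs, and grey points are all others. At the floor used miR-122 lies at 1.52, near miR-1 at 1.39, while miR-192 (0.15) and miR-194 (0.09) lie among the other miRNAs.

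Signal strength and red blood cell markers were set beside miR-122 on the same arrays. Before scaling, the 75th percentile was the lowest of all arrays on Printex 90 replicate 3 (581) and the highest on control replicate 4 (805), the 2 arrays dim for miR-122. The number of detected mouse miRNAs was 248 on Printex 90 replicate 3 and 283 on control replicate 4. miR-122 is carried in plasma, and the summed signal of the red blood cell miRNAs miR-451, miR-144 and miR-486 ran from 21.7 to 30.6 after Printex 90 and from 19.7 to 46.9 in controls. All 3 of these red blood cell markers were tested, with 0 higher and 3 lower after Printex 90. On the dim arrays their sum was 21.7 (Printex 90 replicate 3) and 30.2 (control replicate 4), both inside the range of the 6 bright arrays. The parts of signal strength and of blood in the miR-122 signal were not tested. In bulk tissue, fewer cells of a type and less RNA per cell cannot be told apart.

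The detection pattern of miR-122, present on 7 arrays and missing on Printex 90 replicate 3, was shared by exactly 3 other mouse miRNAs. They were miR-129-3p, miR-206 and miR-615-3p, and over the 7 arrays that detected them their signals differed by 1.57-fold, 1.54-fold and 1.74-fold. miR-206, a skeletal muscle miRNA, read 0.0335 on Printex 90 replicate 3, not well above background, and 0.0422 to 0.0648 on the other arrays. miR-615-3p read 0.0482 on that array and 0.0578 to 0.100 on the others. miR-129-3p read 0.0308 on that array, inside its range of 0.0282 to 0.0444 on the others, so it was not lower there. The choice of these 3 fixed their detection on control replicate 4, where miR-122 was dim, so that detection is no separate result.

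miR-192 measured 0.154, 0.168, 0.136 and 0.152 on Printex 90 replicates 1 to 4, against 0.155, 0.161, 0.169 and 0.129 on control replicates 1 to 4. The groups covered the same range, and the lowest array of each group was the one dim for miR-122. The means were 0.153 ± 0.0132 after Printex 90 and 0.153 ± 0.0174 in controls (SD, n = 4 each). The log2 difference was -0.004 (SE 0.10, limma adjusted p = 1). The 95% interval, 0.847-fold to 1.18-fold, leaves room only for small changes of miR-192. Its 2 probes differed by -0.05 and 0.03 on the log2 scale (exact permutation p = 0.543 and 0.83, 2-sided), and all 8 arrays had both probes detected.

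The near 0 difference of miR-192 had no settled sign. It was 0.049 when all mouse miRNAs entered the 75th percentile, 0.064 after normexp background correction, 0.051 without Printex 90 replicate 3 and -0.07 without scaling. Its limma adjusted p was at least 0.681 under every alternative run.

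miR-194 measured 0.100, 0.110, 0.0982 and 0.100 on Printex 90 replicates 1 to 4, against 0.116, 0.110, 0.114 and 0.0996 on control replicates 1 to 4. Most Printex 90 arrays lay low, but control replicate 4 lay among them, so the groups overlapped. The means were 0.102 ± 0.00528 after Printex 90 and 0.110 ± 0.00738 in controls (SD, n = 4 each). The log2 difference was -0.10 (SE 0.060, limma adjusted p = 0.706), or 0.931-fold with a 95% interval of 0.845 to 1.03. Of the 268 tested miRNAs the median difference was -0.05, with 85 higher and 176 lower, so miR-194 lay on the side where most miRNAs lay. Its 2 probes differed by -0.08 and -0.16 (exact permutation p = 0.229 and 0.114, 2-sided), and normexp turned the sign to 0.036. The difference was -0.17 without scaling, -0.05 with the 75th percentile over all mouse miRNAs and after quantile normalization, -0.02 in the value table and -0.08 without Printex 90 replicate 3.

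miR-215, which shares its seed with miR-192 and its transcript with 1 of the miR-194 hairpins, was not well above background on any array. Of the 156 spots kept over all arrays 0 were well above background, and the mean of a probe on an array reached at most 2.25 intensity units. On the same arrays the probes of miR-192, which differs from it at 3 of 21 bases, read 29.6 to 74.6 units. No level of miR-215 can be given from these arrays.

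miR-192 and miR-194 tended to go together from array to array. Over the 8 arrays their log2 signals had a Pearson r of 0.73 (exact permutation p = 0.0359, adjusted p = 0.251 over 7 relations) and a Spearman rho of 0.83 (exact permutation p = 0.0154, adjusted p = 0.108). As deviations from the group means r was 0.88, and without the 2 arrays farthest from the median of miR-194 it was 0.80. The values share an array and its scaling, and r was 0.25 with the 75th percentile over all mouse miRNAs (exact permutation p = 0.539) and 0.39 after quantile normalization (exact permutation p = 0.334). Without Printex 90 replicate 3 it was 0.66 (exact permutation p = 0.0760). The other 6 relations set miR-192 and miR-194 against the 75th percentile before scaling, the epithelial miR-200c and the red blood cell miR-451. Their Pearson r ran from -0.25 (miR-192 with the 75th percentile) to 0.46 (miR-194 with miR-451), with adjusted exact permutation p of at least 0.845.

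**Figure D4:**
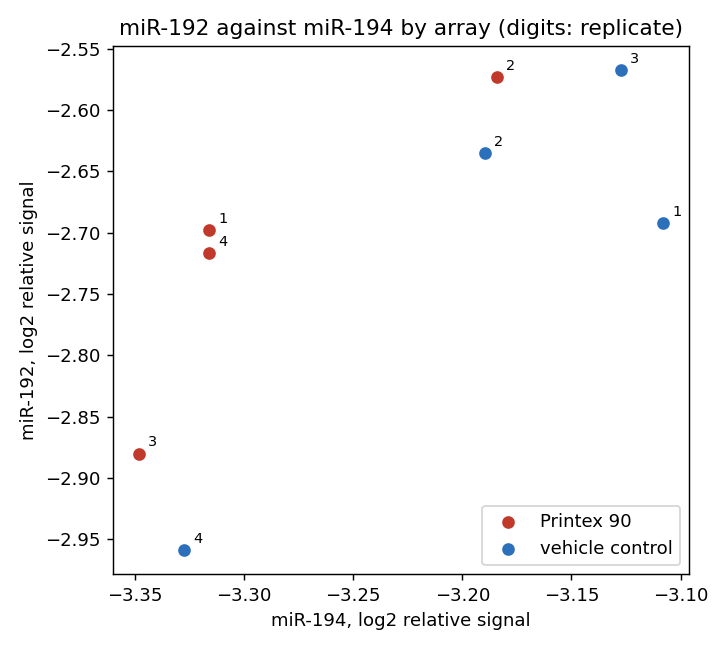
miR-192 against miR-194, both as log2 relative signal, for the 8 arrays labelled by replicate (red, Printex 90, and blue, vehicle control). Printex 90 replicate 3 and control replicate 4 lie lowest for both miRNAs, and the groups overlap along both axes.

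The ratio of miR-192 to miR-194 within an array does not depend on a scaling factor. Its log2 value was 0.62, 0.61, 0.47 and 0.60 on Printex 90 replicates 1 to 4, against 0.42, 0.55, 0.56 and 0.37 on control replicates 1 to 4. Most Printex 90 arrays lay above the controls, except replicate 3. The means were 0.57 ± 0.07 and 0.47 ± 0.10 (SD, n = 4 each). The difference of 0.10 did not pass the test (exact permutation p = 0.171, 2-sided, where 4 against 4 can reach 0.0286). Without Printex 90 replicate 3 the difference was 0.13. It was 0.03 after quantile normalization (exact permutation p = 0.771), 0.03 with normexp (exact permutation p = 0.371) and 0.05 in the value table (exact permutation p = 0.0857).

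The 2 arrays dim for miR-122 were also the lowest 2 of the 8 for miR-192 and for miR-194. This order held for miR-192 with the 75th percentile over all mouse miRNAs and after quantile normalization. It did not hold for miR-194 under these settings, where control replicate 4 ranked 7 and 5 of 8 from the lowest. Without scaling, control replicate 4 ranked 4 for miR-192 and 7 for miR-194. With the log2 values of the probes averaged, it ranked 3 for miR-194. In the main processing the margin for miR-194 was narrow. Printex 90 replicate 3 (0.0982) and control replicate 4 (0.0996) lay just under Printex 90 replicates 1 and 4 (0.100 each). In the value table Printex 90 replicate 3 ranked 3 for both, and control replicate 4 ranked 5 for miR-194. With normexp, Printex 90 replicate 3 ranked 5 for miR-192 and 8 for miR-194. The low place of both arrays for miR-192 and miR-194 therefore depended on the processing. Among the 6 arrays bright for miR-122, its log2 signal had a Pearson r of 0.38 with miR-192 (exact permutation p = 0.512, Spearman rho -0.14, exact permutation p = 0.803). With miR-194 the r was -0.52 (exact permutation p = 0.344, Spearman rho -0.60, exact permutation p = 0.242). Adjusted over these 2 relations, Pearson's p was 0.512 for both and Spearman's p was 0.803 for miR-192 and 0.483 for miR-194 (exact permutation).

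Of 260 miRNAs that varied, the 3 most correlated with miR-192 over the 8 arrays were miR-122, miR-669e and miR-16*. For miR-122 no pooled value is given, since its arrays fell into bright and dim ones. miR-669e had a Pearson r of 0.84 and a rho of 0.88, and miR-16* an r of 0.81 and a rho of 0.90 (exact permutation p adjusted over 260, 0.285 for each r and 0.121 for each rho). The 3 most like miR-194 were miR-101b (r 0.82, rho 0.79), miR-466d-3p (r 0.81, rho 0.71) and miR-872* (r 0.81, rho 0.79), with adjusted exact permutation p of 0.494 for each r and 0.514 for each rho. Without the 2 arrays farthest from each one's median, these 5 values of r were between 0.75 and 0.94. None passed the adjustment, so the order of these neighbours is a description.

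The liver list, which includes miR-122, miR-192 and miR-194, was read against the same background, in which 0% of the tested miRNAs passed. Of 8 on the liver list 6 were tested, 2 higher and 4 lower after Printex 90, with 0 past the threshold and a median log2 difference of -0.04, beside -0.05 over all tested. These counts include the members, miR-122 as higher and miR-192 and miR-194 as lower. Of the other tested liver miRNAs, miR-148a was higher, and miR-101b and miR-365 were lower. miR-148a, which is abundant in liver but not restricted to it, measured 0.613, 0.680, 0.616 and 0.575 on Printex 90 replicates 1 to 4, against 0.536, 0.575, 0.509 and 0.543 on control replicates 1 to 4. Its arrays overlapped by a narrow margin, and its log2 difference of 0.20 (SE 0.060) had a limma adjusted p of 0.706. miR-101b, a broadly expressed miRNA that targets Ezh2, measured 0.306 ± 0.00884 and 0.326 ± 0.0132 (log2 difference -0.09, limma adjusted p = 0.706). miR-365 differed by -0.07. miR-802, a miRNA of liver, pancreas and gut, was not well above background on any array, nor was miR-215.

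Of 10 gut epithelium miRNAs 9 were tested, 6 higher and 3 lower, with 0 past the threshold and a median log2 difference of 0.06. The 5 members of the miR-200 family, which keep epithelial identity by repressing Zeb1 and Zeb2 and are made in lung epithelium too, lay between 0.04 for miR-200a and 0.10 for miR-141. Their summed signal ran from 7.65 to 9.14 after Printex 90 and from 7.32 to 8.17 in controls. Without Printex 90 replicate 3, which had the highest sum, 3 of the 5 were higher and 2 lower, and the Printex 90 sums ended at 8.16. miR-375, of pancreatic islets and neuroendocrine cells, measured 0.125 ± 0.0401 and 0.128 ± 0.0256 (log2 difference -0.06, SE 0.24). miR-31, an epithelial miRNA, measured 0.189 ± 0.0145 and 0.164 ± 0.00968 (log2 difference 0.20, limma adjusted p = 0.706). In the 2 lists together 8 of 13 tested miRNAs were higher and 5 lower, so they did not share a direction. miR-192 and miR-194 are on both lists, with the differences of -0.004 and -0.10 given above.

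**Figure D5:**
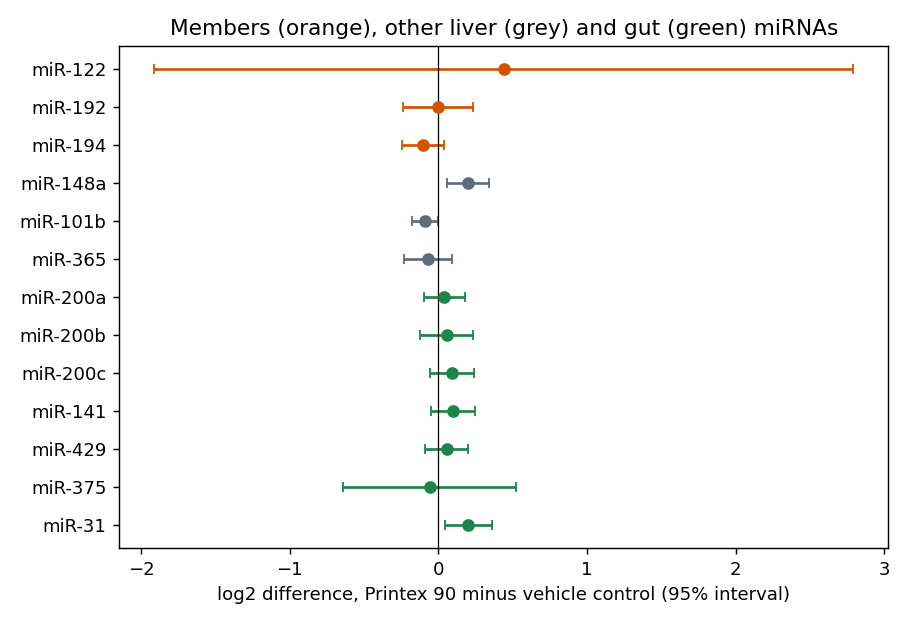
log2 difference, Printex 90 minus vehicle control, with its 95% interval from limma, for the members (orange) and the other tested liver (grey) and gut (green) miRNAs. The interval of miR-122 spans -1.91 to 2.79, while those of miR-192 and miR-194 stay within 0.25 of 0.

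The other marker lists gave these values beside the members. Summed striated muscle signals (4 of 4 tested, 0 higher and 4 lower) ran from 0.313 to 3.05 after Printex 90 and from 0.380 to 1.91 in controls. Leukocyte signals (6 of 6 tested, 2 higher and 4 lower) ran from 7.51 to 8.90 and from 7.12 to 9.11. Multiciliated airway signals ran from 4.77 to 7.48 and from 4.00 to 6.18, highest on Printex 90 replicate 3 and lowest on control replicate 4 (4.77 to 6.36 after Printex 90 without replicate 3). Endothelial signals ran from 34.4 to 42.3 and from 37.3 to 43.0, and islet signals (miR-375 and miR-7a) from 0.164 to 0.253 and from 0.158 to 0.213. The 2 arrays dim for miR-122 were thus at opposite ends for airway cells. The part of any of these in the members' values was not tested.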

How the data were processed

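RNA from lung tissue was hybridised to 8 one-colour (Cy3) Agilent miRNA arrays, 4 per group. Per the labels' protocols, a miRvana kit gave total RNA enriched in small RNA, and Agilent's miRNA labelling kit was used. Per the file headers, the deposited spot intensities were read with Feature Extraction 10.7.3.1 (grid design 021828). They are background-subtracted per array and not normalized between arrays. The value table deposited by the authors is on a log2 scale (column medians 5.41 to 5.43). On each array their ranks matched those of the median spot signal (rank correlation 1.00), and how they were normalized between arrays stays unknown. The table served only as an alternative.

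From the processed intensity, control spots and outlier-flagged spots (2.25% to 2.76% per array) were left out, and 0 spots were saturated. Spots were averaged per probe and probes summed per miRNA. The scaling factor of an array was the 75th percentile of the 240 mouse miRNAs that all 8 arrays detected. A floor of 0.0388 (5th percentile of detected signals) was set before log2 was taken, which understates differences near it. The 268 mouse miRNAs detected on 4 or more arrays were fitted together in limma 3.58.1 (R 4.3.3, lmFit and eBayes, 2-sided, Benjamini-Hochberg adjustment over all 268). Single measures were compared by exact permutation over all 70 assignments. Probes of a miRNA were also tested one by one. Precision is limited by how few arrays there are. The limma step was tested on simulated data.

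The miRNAs named are the members with their probes, their family partner, liver, gut and marker lists, the 3 miRNAs most correlated with miR-192 and with miR-194, and those detected on exactly the arrays of miR-122. Members and lists were chosen with earlier results of these data known. Array names are older ones without an arm. The mature strands shown are the 5p arms that those names denoted, from the RefSeq table of GRCm38.p6. The normexp alternative used the median spot signal, since the files hold no mean one. Other alternatives covered scaling, probe summary, filter, floor, spread model, replicate number and each array left out.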

Additional observations from a re-analysis of the deposited data

Results flagged for a closer look

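Among 66 groups of 4 arrays, 4 held an array whose gap to the nearest other, divided by the range, passed Dixon's 95% limit for 4 values, where chance gives about 1 in 20 groups, or 3.3. miR-122 on Printex 90 replicate 3 was low (log2 value -4.69 at the floor, next -1.61, gap 0.880 of the range). The log2 ratio of miR-192 to miR-194 on the same array was low (0.47, next 0.60, gap 0.878). miR-133a on Printex 90 replicate 1 was high (-0.87, next -3.78, gap 0.845). miR-126-3p on vehicle control replicate 2 was low (5.20, next 5.38, gap 0.893).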

How the results depend on the processing

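Among 21 alternatives the miR-122 difference stayed positive and past no threshold in 20, and was -0.23 without vehicle control replicate 4. The filter, the spread model and the replicate block could not change this difference. The doubled floor left it at 0.44 too, since 1 array of each group lay at the floor. Leaving out each replicate gave -0.23 to 1.25. For miR-192 the sign turned to 0.049 with the 75th percentile over all mouse miRNAs, 0.029 in the value table and 0.064 with normexp, and leaving out each replicate gave -0.086 to 0.051. For miR-194 normexp gave 0.036, the value table -0.02, no scaling -0.17 and the percentile over all mouse miRNAs and quantile normalization -0.05, and leaving out each replicate gave -0.15 to -0.08. The median over tested miRNAs was -0.12 without scaling and 0.04 with normexp. Calls numbered 3 with normexp and, over the left-out replicates, 0 to 3 (3 without Printex 90 replicate 3), and none was miR-122, miR-192 or miR-194. The ratio difference kept its sign in 18 of 18 alternatives but was 0.03 with quantile normalization and with normexp and 0.05 in the value table, and 0.06 to 0.13 over the left-out replicates. The scaling alternatives, the changed floors and the replicate block could not change the ratio difference, so the count overstates how steady it was. The within-group SD of miR-122 ran from 0.64 (normexp) to 1.91 (floor halved). The correlation of miR-192 with miR-194 was 0.25 with the percentile over all mouse miRNAs, 0.39 with quantile normalization and 0.71 with normexp (exact permutation p = 0.117), and 0.66 to 0.83 over the left-out replicates. The deviations of same-numbered arrays of the groups had correlations of -0.13, -0.38, -0.47 and 0.44. Only replicate 4 correlated best with its own number, and these values cannot settle whether the numbers mark pairs. With the replicate block the differences stayed at 0.44, -0.004 and -0.10 and the ratio difference at 0.10. The block cannot change them when each number occurs once in each group, so they say nothing about pairs. With it 0 miRNAs passed, so no call changed. With detection required on all 8 arrays miR-122 was not tested. The causes of these shifts were not tested. Signals of miR-215, miR-802 and, on Printex 90 replicate 3, miR-122 were too close to background to give a level.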
